A study of Oryza sativa Japonica Group with 8 samples.

Results

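Core cell cycle genes were compared between young rice inflorescences of an osg1l2 single mutant and of a wild type control. The set holds 8 of the 37859 genes in the deposited FPKM table, chosen by RAP identifier: CDKA1 (Os03g0118400), CDKA2 (Os02g0123100), CDKB1 (Os01g0897000), CDKB2 (Os08g0512600), CYCB2;1 (Os04g0563700), CYCB2;2 (Os06g0726800), KRP1 (Os02g0762400) and PCNA (Os02g0805200). FPKM is fragment abundance scaled by gene model length and by library size, so levels of different genes can be set side by side within that table. By their identifiers CDKA2, KRP1 and PCNA lie on chromosome 2 and the other members on chromosomes 1, 3, 4, 6 and 8. The identifiers were taken from a fixed list of known cell cycle genes and not by their values, although the list was proposed with earlier results of these data known.

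The osg1l2 group has 4 libraries and the wild type group has 4 libraries, all from the cultivar Nipponbare. The label of the mutant names no allele and no number of lines. OsG1L2 encodes a nuclear protein of the plant-specific ALOG family, and the series title places it in the control of panicle branching. Both genotypes were grown in long days (16 h light at 28°C, 8 h dark at 26°C), and tissue was taken 12 days after a change to short days (12 h light, 12 h dark). The dissected tissue was enriched in the young meristem stages that the labels abbreviate as PBMs and ePBM/Ams. The design text calls the 4 replicates per genotype independent but does not name what was separate between them, and p-values cover only the spread among these libraries. In bulk tissue, fewer dividing cells and less RNA per dividing cell cannot be told apart.

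A plant cell passes through its division cycle under cyclin-dependent kinases, which act only when bound to a cyclin. The A-type kinases (CDKA) are related to the cdc2 kinase of yeast and are present through the cycle, whereas the B-type kinases (CDKB) are found only in plants and algae and are transcribed mainly from late DNA synthesis to mitosis. B-type cyclins accumulate before mitosis and bind these kinases, KRP proteins inhibit kinase and cyclin complexes, and PCNA is the sliding clamp that holds DNA polymerase on the template during replication. Inflorescence meristems are sites of active division, and transcripts of B-type kinases, B-type cyclins and PCNA are widely used as markers of dividing cells.

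The libraries as a whole gave summed FPKM values between 213940 and 221906 in osg1l2 and between 218558 and 231675 in wild type. Depth is unknown because the values are estimates without counts. The first principal component of all tested genes (40.5% of variance) separated the genotypes. On it wild type lay between -21.5 and -11.5 and osg1l2 between 13.2 and 22.6. On the second (17.9%), wild type replicate 2 lay at -28.4 and the other wild type libraries between 4.87 and 10.8. The comparison of each member is also given without wild type replicate 2. The deposited identifiers could not be joined to gene symbols for OsG1L2 or for tissue markers, so neither the genotype labels nor the labelled tissue were checked by expression.

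No difference between osg1l2 and wild type was detected for the 7 cell cycle genes whose mean over the 8 libraries reached 1 FPKM, and the intervals left room for small differences only. Their log2 fold changes lay between -0.14 (CYCB2;2) and 0.11 (CDKA1). The 95% intervals of the main fit reached down to -18.7% for CYCB2;2 and up to 16.2% for CDKA1, as differences from wild type in FPKM + 1. Over the 17 alternative fits they reached, in log2, down to -0.34 for CYCB2;2 and up to 0.27 for CDKA1. Some of those intervals excluded 0, although no member was called. Of the 18254 genes tested, 352 (1.93%) passed (limma on log2(FPKM + 1), Benjamini-Hochberg adjusted p under 0.05). This count moved when single libraries were left out, which also lowers the power of the test. It was 831 genes (4.55%) without wild type replicate 2. Without any other library it fell, to between 157 genes (0.860%, without wild type replicate 1) and 244 genes (1.34%, without osg1l2 replicate 2). At an unadjusted p under 0.05 the count was 0 of 7 members, against 19.5% of all genes tested. In the authors' deposited table no member had a q-value under 0.05, against 2.02% of its entries. KRP1 stayed under the level filter and was not tested. Without wild type replicate 2 no member passed either: the log2 fold changes were then -0.07 for CDKB1, -0.15 for CDKB2, 0.03 for CYCB2;1, -0.11 for CYCB2;2 and -0.04 for PCNA (limma adjusted p from 0.20 for CDKB2 to 0.85 for CYCB2;1).

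**Figure D1:**
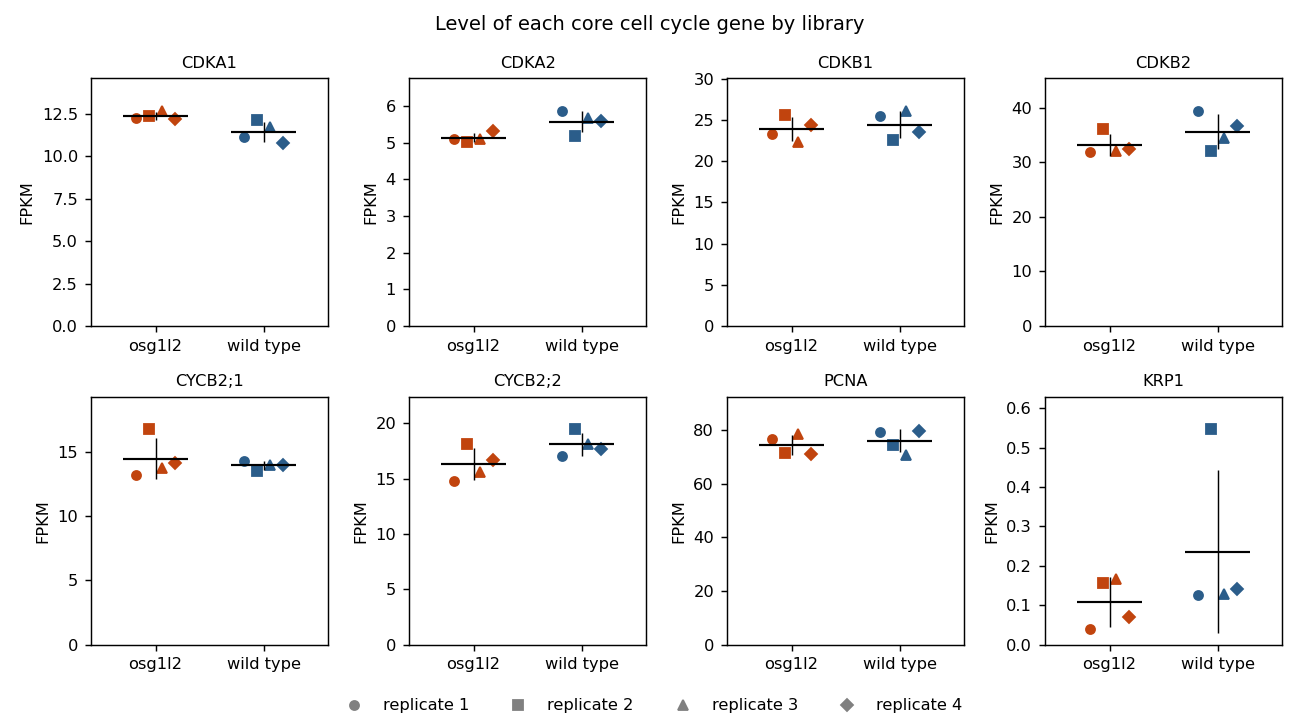
FPKM of each gene (vertical axis, from 0, scaled per panel) in the 4 osg1l2 and the 4 wild type libraries; symbols mark the replicate number, horizontal bars the mean and vertical bars ±1 SD. The genotypes overlap in every panel except CDKA1, where the lowest osg1l2 library (12.2 FPKM) lies just above the highest wild type library (12.1 FPKM), and KRP1 stays under 0.55 FPKM in every library.

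The A-type kinases had small estimates of opposite sign. CDKA1 was at 12.3, 12.4, 12.7 and 12.2 FPKM in osg1l2, against 11.1, 12.1, 11.7 and 10.8 FPKM in wild type. Its 4 osg1l2 values all lay above the 4 wild type values, a separation also found in 11.8% of all genes tested, but the nearest libraries of the groups were closer to each other than the wild type libraries were among themselves. The log2 fold change was 0.11 (standard error 0.049, 95% interval from -0.0043 to 0.22, limma adjusted p = 0.27). The exact two-sided permutation test gave p = 0.0286, the smallest that 4 against 4 libraries allow. With median-of-ratios factors the log2 fold change was 0.15 (95% interval from 0.023 to 0.27, limma adjusted p = 0.20). With quantile normalization it was 0.14 (95% interval from 0.017 to 0.26, limma adjusted p = 0.21).

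CDKA2 was the less abundant A-type kinase. It was at 5.10, 5.02, 5.09 and 5.31 FPKM in osg1l2, against 5.87, 5.17, 5.69 and 5.59 FPKM in wild type. Only wild type replicate 2 fell within the osg1l2 range. The log2 fold change was -0.10 (standard error 0.051, limma adjusted p = 0.31), with a 95% interval from -0.21 to 0.014. Without wild type replicate 2 the log2 fold changes were 0.13 for CDKA1 and -0.13 for CDKA2, with limma adjusted p of 0.14 for each. The 95% intervals then excluded 0, from 0.024 to 0.24 for CDKA1 and from -0.24 to -0.022 for CDKA2.

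The B-type kinases, which mark cells from late DNA synthesis to mitosis, were more abundant than the A-type kinases in every library. CDKB1 was at 23.4, 25.6, 22.3 and 24.4 FPKM in osg1l2, against 25.5, 22.6, 26.1 and 23.6 FPKM in wild type. The libraries of the genotypes were interleaved, and the log2 fold change of -0.03 (standard error 0.063, limma adjusted p = 0.83) turned to 0.010 when the libraries were rescaled by median-of-ratios factors. CDKB2 was at 31.9, 36.1, 31.99 and 32.4 FPKM in osg1l2, against 39.4, 31.98, 34.4 and 36.7 FPKM in wild type. Its groups overlapped, because osg1l2 replicate 2 was as high as the middle of wild type and wild type replicate 2 was as low as most of osg1l2. For CDKB2 the log2 fold change was -0.10 (standard error 0.072, limma adjusted p = 0.48), and its 95% interval ran from -0.26 to 0.061. With single libraries left out it ranged from -0.15 without wild type replicate 2 to -0.051 without wild type replicate 1 (limma adjusted p = 0.20 and 0.76).

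The B2-type cyclins, partners of mitotic kinases, differed in the sign of their estimates. CYCB2;1 was at 13.2, 16.8, 13.7 and 14.2 FPKM in osg1l2, against 14.3, 13.5, 14.0 and 14.0 FPKM in wild type. The wild type libraries were tightly grouped, with a coefficient of variation of 2.42%, while osg1l2 replicate 2 set the spread of 11.0% in the mutant. It had a log2 fold change of 0.04 (standard error 0.071, limma adjusted p = 0.78), and without osg1l2 replicate 2 it was -0.03 (limma adjusted p = 0.81). CYCB2;2 was at 14.8, 18.1, 15.6 and 16.7 FPKM in osg1l2, against 17.1, 19.5, 18.1 and 17.7 FPKM in wild type. All but osg1l2 replicate 2 lay below the wild type range. The log2 fold change of CYCB2;2, the largest in size of the 7, was -0.14 (standard error 0.069, 95% interval from -0.30 to 0.010, limma adjusted p = 0.29). With single libraries left out it ranged from -0.19 without osg1l2 replicate 2 (limma adjusted p = 0.16) to -0.10 without osg1l2 replicate 1 (limma adjusted p = 0.55).

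PCNA, the replication clamp, was the most abundant member. It was at 76.7, 71.3, 78.3 and 71.1 FPKM in osg1l2, against 79.1, 74.5, 70.6 and 79.7 FPKM in wild type. The genotypes covered nearly the same range. The log2 fold change of PCNA was -0.03 (standard error 0.058, limma adjusted p = 0.82), with a 95% interval from -0.16 to 0.10. Its sign turned under rescaling, to 0.012 with median-of-ratios factors and to 0.049 with quantile normalization.

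KRP1, the inhibitor in the set, was barely detected in this tissue. It was at 0.0399, 0.157, 0.167 and 0.0696 FPKM in osg1l2, against 0.126, 0.547, 0.129 and 0.141 FPKM in wild type. Wild type replicate 2 was well above the other wild type libraries, and the groups overlapped. The wild type mean was 0.236 FPKM ± 0.207 (SD, n = 4), and 0.132 FPKM without that library, beside an osg1l2 mean of 0.108 FPKM ± 0.063 (SD, n = 4). With the depth unknown, values this low carry no interval for counting error. The difference on the log2(FPKM + 1) scale was -0.14 with all libraries and -0.032 without wild type replicate 2, and a fit without the level filter gave a limma adjusted p of 0.60.

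**Figure D2:**
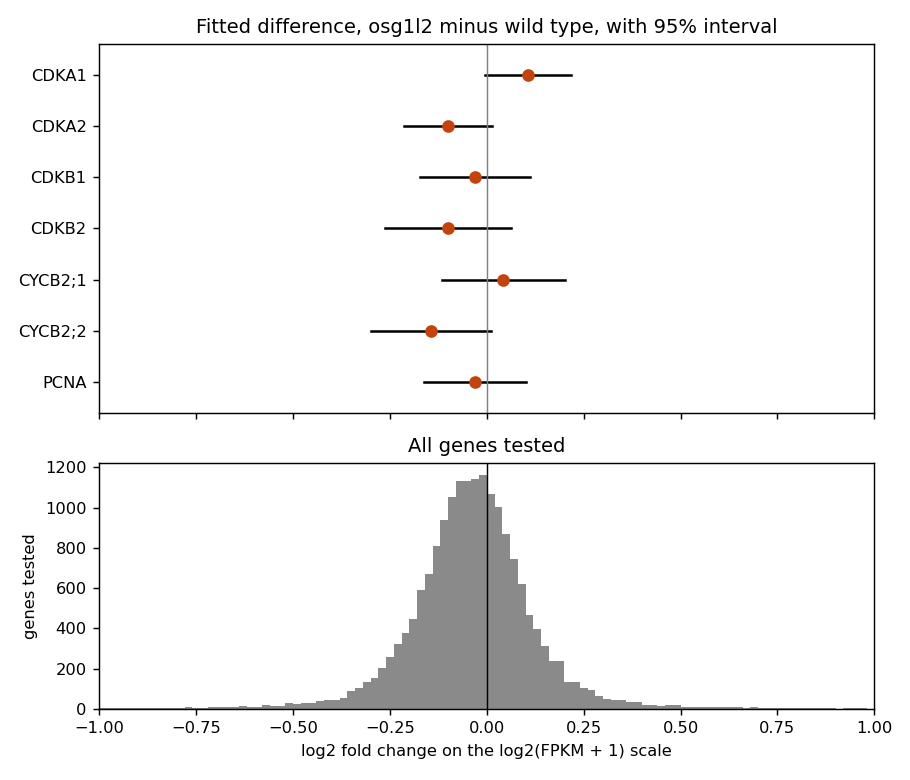
Upper panel: log2 fold change of the 7 tested genes, as log2(FPKM + 1) in osg1l2 minus wild type, with points for the estimates and lines for limma's 95% intervals. Lower panel: the same quantity for all 18254 genes tested, of which 134 lie beyond the plotted range of 1 in either direction; every interval in the upper panel crosses 0.

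As a group the 7 tested members sat in the middle of the transcriptome. Their median log2 fold change was -0.03, against -0.04 for all genes tested, with 2 members above 0 and 5 below, beside 6995 and 11259 of all genes. This split depended on the scaling: with median-of-ratios factors 4 members lay above 0 and 3 below, beside 9003 and 9251 of all genes, whose median log2 change was then -0.0022, and with quantile normalization 3 lay above and 4 below. Their median absolute log2 change was 0.10, against 0.090 for all genes tested, and the largest, 0.14, was below the 95th percentile of 0.36. The spread of the members between libraries of one genotype was also near that of other genes. The within-genotype SD on the log2(FPKM + 1) scale ranged from 0.051 for CDKA2 to 0.107 for CDKB2, with a median of 0.088, against a median of 0.108 for all genes tested. CDKA1 and CDKA2 were the steadiest: 6.09% and 5.69% of tested genes had a smaller SD, against 33.5% for CDKB1 and 49.0% for CDKB2. Among genes of 5 to 100 FPKM, nearer in level to the members, the median SD was 0.099. There 8.10% had a smaller SD than CDKA1, 7.56% than CDKA2, 40.3% than CDKB1 and 56.1% than CDKB2.

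By mean FPKM the order of levels was the same in both genotypes: PCNA, CDKB2, CDKB1, CYCB2;2, CYCB2;1, CDKA1, CDKA2 and KRP1. In the authors' deposited table CYCB2;1 (26.3) stood above CYCB2;2 (24.3) in osg1l2. PCNA averaged 74.4 FPKM ± 3.69 in osg1l2 and 76.0 FPKM ± 4.26 in wild type (SD, n = 4 each), above 99.1% of all genes in the table by its mean over the 8 libraries. CDKB2 averaged 33.1 FPKM ± 2.02 in osg1l2 and 35.6 FPKM ± 3.19 in wild type (SD, n = 4 each). CDKB1 averaged 23.9 FPKM ± 1.41 in osg1l2 and 24.5 FPKM ± 1.66 in wild type (SD, n = 4 each). The B-type kinases thus stood above 97.1% (CDKB2) and 95.3% (CDKB1) of all genes, and the A-type kinases above 88.8% (CDKA1) and 76.3% (CDKA2). Neighbours in this order did not overlap across the 4 libraries of a genotype, with 1 exception. In osg1l2 the ranges of the B2-type cyclins overlapped, with CYCB2;2 at 16.3 FPKM ± 1.44 and CYCB2;1 at 14.5 FPKM ± 1.58 (SD, n = 4 each), whereas in wild type CYCB2;2 at 18.1 FPKM ± 1.01 lay clear of CYCB2;1 at 14.0 FPKM ± 0.338 (SD, n = 4 each).

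The pool of kinase transcripts was described after the values had been seen, without a test. Summed over CDKA1, CDKA2, CDKB1 and CDKB2 it was 74.5 FPKM ± 3.20 in osg1l2 and 77.1 FPKM ± 4.16 in wild type (SD, n = 4 each), with overlapping ranges. CDKB2 made up 44.4% ± 0.89 of this sum in osg1l2 and 46.2% ± 2.14 in wild type, and CDKB1 32.1% ± 0.80 in osg1l2 and 31.7% ± 1.25 in wild type (SD, n = 4 each). CDKA1 made up 16.6% ± 0.82 in osg1l2 and 14.9% ± 1.45 in wild type (SD, n = 4 each). These 3 shares overlapped between the genotypes. CDKA2 made up 6.90% ± 0.37 in osg1l2 and 7.24% ± 0.069 in wild type (SD, n = 4 each). Its ranges were separate but nearly touched, at 6.35% to 7.15% in osg1l2 and 7.16% to 7.30% in wild type. In plain FPKM the genotypes overlapped for CDKA2, while 11.8% of all genes tested were separate. How many other genes would be separate in such a share was not computed. The summed B2-type cyclins were at 30.8 FPKM ± 2.99 in osg1l2 and 32.04 FPKM ± 0.68 in wild type (SD, n = 4 each), again with overlapping ranges.

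Ratios between members within a library do not depend on how that library was scaled. Each of 6 members was set over CDKA1, the A-type kinase that serves throughout the cycle, and all 6 ratios had a lower mean in osg1l2. They share the CDKA1 values in their denominator and are not independent. CDKA1 had the highest log2 fold change of the tested members (0.11), so the common direction largely restates its own estimate. Of the 18254 genes tested, 11259 had a log2 fold change below 0. The share of all genes with a lower ratio over CDKA1 was not computed. CYCB2;2 over CDKA1 was 1.21, 1.47, 1.23 and 1.37 in osg1l2, against 1.54, 1.61, 1.55 and 1.64 in wild type. This ratio did not overlap between genotypes, which also held for 18.2% of the ratios of all other tested genes over CDKA1. Its log2 difference was -0.27 (exact two-sided permutation p = 0.0286, adjusted p = 0.17 over the 6 ratios). With single libraries left out the log2 difference ranged from -0.32 without osg1l2 replicate 2 to -0.23 without osg1l2 replicate 1. The smallest p of this design cannot pass the adjustment for a single ratio among 6.

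The other ratios over CDKA1 overlapped between the genotypes. CDKB2 over CDKA1 averaged 2.68 ± 0.172 in osg1l2 and 3.13 ± 0.420 in wild type (SD, n = 4 each; exact permutation p = 0.11, adjusted p = 0.26). CDKB1 over CDKA1 averaged 1.94 ± 0.135 in osg1l2 and 2.15 ± 0.192 in wild type (SD, n = 4 each; exact permutation p = 0.14, adjusted p = 0.26). PCNA over CDKA1 averaged 6.02 ± 0.240 in osg1l2 and 6.68 ± 0.685 in wild type (SD, n = 4 each; exact permutation p = 0.17, adjusted p = 0.26). The ratio that differed least was CYCB2;1 over CDKA1, at 1.17 ± 0.130 in osg1l2 and 1.22 ± 0.087 in wild type (SD, n = 4 each; exact permutation p = 0.49, adjusted p = 0.49). KRP1 over CDKA1 had a log2 difference of -1.14, which shrank to -0.25 with 1 FPKM added to both genes (exact permutation p = 0.26, adjusted p = 0.31 without that addition). With single libraries left out the log2 difference for CDKB2 over CDKA1 ranged from -0.30 without wild type replicate 2 to -0.15 without wild type replicate 1, around -0.22 with all libraries. For CDKB1 over CDKA1 it ranged from -0.21 without wild type replicate 2 to -0.10 without osg1l2 replicate 3, around -0.15. For PCNA over CDKA1 it ranged from -0.19 without wild type replicate 3 to -0.095 without wild type replicate 4, around -0.15. For CYCB2;1 over CDKA1 it ranged from -0.14 without osg1l2 replicate 2 to -0.031 without osg1l2 replicate 1, around -0.07. For KRP1 over CDKA1 it ranged from -1.41 without osg1l2 replicate 3 to -0.66 without wild type replicate 2.

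**Figure D3:**
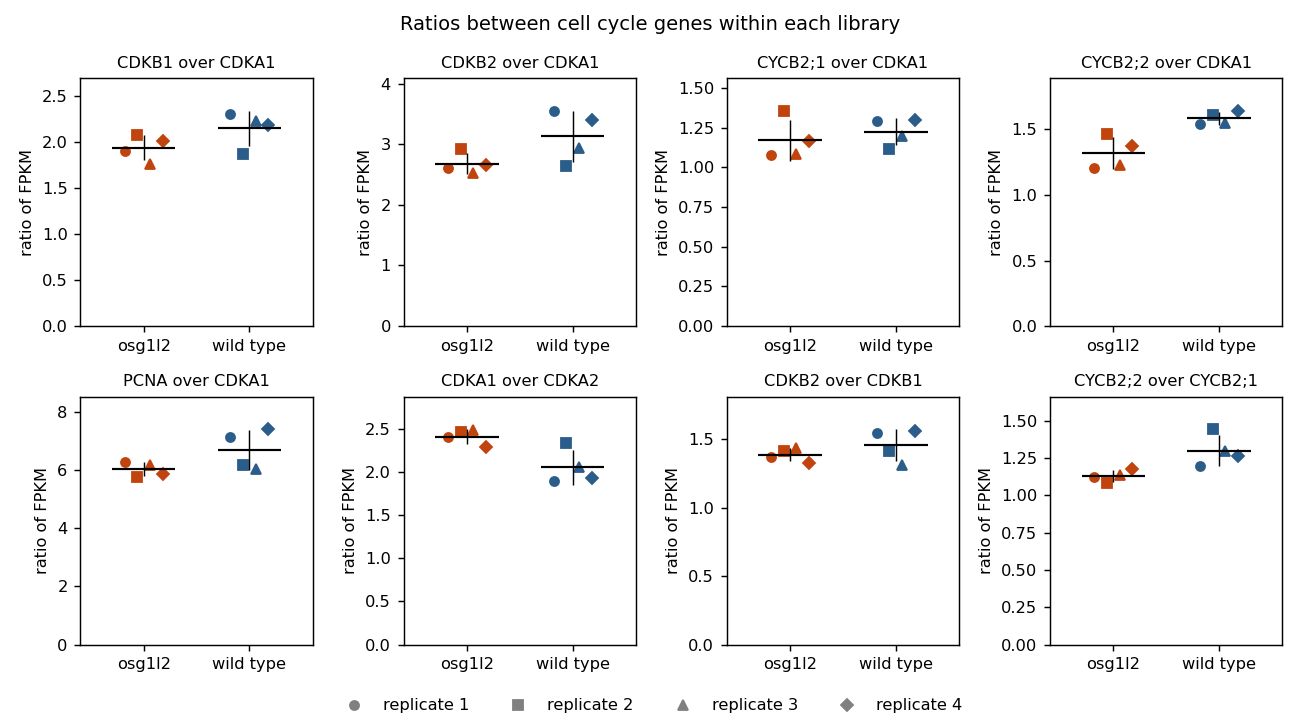
Ratio of FPKM between pairs of cell cycle genes (vertical axis, from 0, scaled per panel) in the 4 osg1l2 and the 4 wild type libraries; symbols mark the replicate number, horizontal bars the mean and vertical bars ±1 SD. The genotypes are separate for CYCB2;2 over CDKA1 and for CYCB2;2 over CYCB2;1 and overlap in the other panels.

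Ratios within pairs of related members were added after the values had been seen and are given without a test. CYCB2;2 over CYCB2;1 was 1.12, 1.08, 1.14 and 1.18 in osg1l2, against 1.19, 1.44, 1.29 and 1.26 in wild type. All 4 osg1l2 libraries thus had a lower ratio than any wild type library, although the nearest libraries were as close as 1.18 in osg1l2 and 1.19 in wild type. Among the ratios of all other tested genes over CYCB2;1, 11.4% were likewise separate. CDKA1 over CDKA2 was 2.40, 2.46, 2.49 and 2.29 in osg1l2, against 1.89, 2.34, 2.06 and 1.93 in wild type. The groups overlapped through wild type replicate 2 alone, and 13.3% of all other tested genes were separate in their ratio over CDKA2. CDKB2 over CDKB1 was interleaved, at 1.39 ± 0.047 in osg1l2 and 1.46 ± 0.115 in wild type (SD, n = 4 each), where 8.19% of ratios over CDKB1 were separate.

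Single libraries were the highest or lowest of their genotype for several members, as they were for many of all genes tested. Replicate 2 of osg1l2 was the highest mutant library for CDKB1, CDKB2 and both B2-type cyclins, by 0.097, 0.12, 0.21 (CYCB2;1) and 0.15 (CYCB2;2) above the osg1l2 mean on the log2(FPKM + 1) scale. The same library was 0.059 below that mean for PCNA, the replication gene. This library was the highest mutant library for 31.6% of all genes tested, and osg1l2 replicate 4 for 31.8%. In wild type, replicate 2 was the lowest library for CDKA2, CDKB1, CDKB2 and CYCB2;1, as it was for 42.9% of all genes tested. It was nevertheless the highest wild type library for CDKA1, CYCB2;2 and KRP1. What set these libraries apart was not tested.

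**Figure D4:**
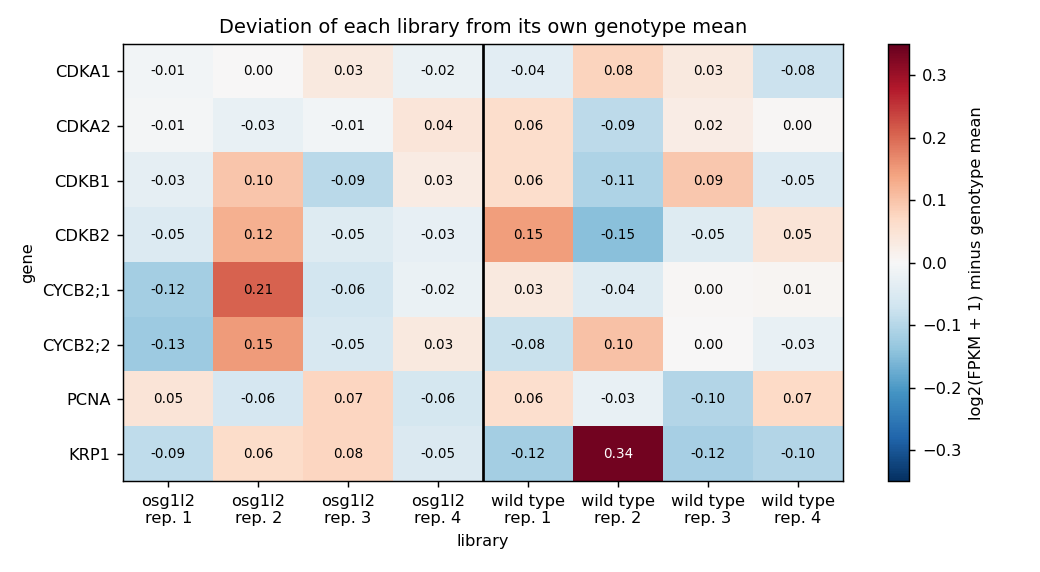
Deviation of each library (columns) from the mean of its own genotype for each gene (rows), in log2(FPKM + 1), with osg1l2 left and wild type right of the black line. Replicate 2 of osg1l2 is above its genotype mean for both B-type kinases and both B2-type cyclins, and wild type replicate 2 is 0.34 above its genotype mean for KRP1.

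The patterns over the 8 libraries were compared by the root mean square difference between log2(FPKM + 1) values centred on each gene's mean, among the 9470 genes whose mean reached 5 FPKM. The genes nearest to CDKB2 were Os04g0445400 and Os03g0665200, each at a difference of 0.032. Of the other members CDKA2 ranked 501st and CDKB1 719th of 9469 genes, while CYCB2;2 ranked 4421st and CDKA1 6788th. The genes nearest to CYCB2;1 were Os02g0581300, at a difference of 0.032, and Os08g0191900, at 0.036. CDKB1 ranked 468th and CDKB2 1695th in nearness to CYCB2;1, while CYCB2;2 ranked 3287th and PCNA 4801st. No other member was thus among the 2 genes nearest to CDKB2 or to CYCB2;1. The deposited tables give no name for the 4 nearest genes.

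The authors' deposited table, which holds 1 value per genotype, also called no member. In the authors' deposited table the log2 fold changes were 0.10 for CDKA1 (q = 0.87), -0.14 for CDKA2 (q = 0.79), 0.0054 for CDKB1 (q = 0.997) and -0.04 for CDKB2 (q = 0.96). The authors' deposited table gave 0.10 for CYCB2;1 (q = 0.83), -0.15 for CYCB2;2 (q = 0.61), -0.02 for PCNA (q = 0.98) and -1.18 for KRP1 (q = 1.0). Both tables belong to the same series and cannot be taken as independent.

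The genotype values of the authors' deposited table have no named unit, so they were set beside FPKM as factors only. The median factor over all tested genes was 1.65 in osg1l2 and 1.62 in wild type. The genotype value in the authors' deposited table was 2.34 times the mean FPKM for CDKB2 in osg1l2 and 2.24 times in wild type, above the upper quartiles of all tested genes (2.03 in osg1l2 and 1.96 in wild type). For CYCB2;2 the factor was 1.49 in both genotypes, near the lower quartiles (1.48 in osg1l2 and 1.47 in wild type). Accordingly, CDKB2 over CDKB1 was 1.99 in osg1l2 and 2.05 in wild type in the authors' deposited table, against 1.39 and 1.46 from the FPKM of osg1l2 and wild type libraries. CYCB2;2 over CYCB2;1 was 0.926 in osg1l2 and 1.10 in wild type in the authors' deposited table. There CYCB2;1 had the higher value of the B2-type cyclins in the mutant. The lower ratio in osg1l2 was thus found in both tables, while the order of the cyclins in osg1l2 was not.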

How the data were processed

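RNA was sequenced from 4 osg1l2 and 4 wild type libraries, grouped by their titles. The authors deposited FPKM values per gene and library, so named in the title of the table. The submitters' processing notes name IRGSP-1.0 as genome build. Aligner and quantifier were not given in the sources. Per the file headers, a second deposited table gives 1 score per genotype without a named unit, with its log2 fold change and q-value. The test behind it was not given in the sources.

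Genes averaging 1 FPKM or more over the 8 libraries were fitted as log2(FPKM + 1), which understates changes of low genes, with limma 3.58.1 (R 4.3.3, intensity trend, two-sided, Benjamini-Hochberg over all genes tested). The procedure was tested on simulated data. Exact permutation tests used scipy 1.17.1. Members, lists and tests were chosen with earlier results of these data known. All 8 members are named, with the 2 nearest genes in pattern of CDKB2 and CYCB2;1, since no member was called. The reference gene table held 1 of 37859 identifiers and no member, so other cell cycle genes, tissue markers, OsG1L2 and sequences were not analysed here. Same-numbered libraries were not paired by the labels. Whether counting used strand was not given in the sources, so reads of antisense partners cannot be told apart, and reads shared between related kinases or cyclins may have been split.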

Additional observations from a re-analysis of the deposited data

Results flagged for a closer look

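In 5 of 56 groups of 4 libraries, 1 library lay far from the other 3, with a gap to the nearest above Dixon's 95% critical value as a share of the group's range; chance flags about 1 in 20 groups of independent values, and these groups share libraries. Replicate 2 of osg1l2 was high for CDKB2, at 36.1 FPKM against 31.9 to 32.4 FPKM in the other osg1l2 libraries (gap 0.896 of the range). The same library had the lowest share of CDKA2 in the summed kinase level, 6.35% (gap 0.835). Wild type replicate 2 was high for KRP1, at 0.547 FPKM against 0.126 to 0.141 FPKM (gap 0.965), and therefore for KRP1 over CDKA1 (gap 0.942). It also stood apart on the second principal component of all tested genes (gap 0.849). Its library quality weight was 0.404, the lowest of the 8. The cause was not tested.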

How the results depend on the processing

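In none of the 17 alternative fits was a tested cell cycle gene called, with limma adjusted p from 0.10 (CDKA1 with library quality weights) to 0.997 (CDKB1 without wild type replicate 3). CDKA1 stayed above 0, and CDKA2, CDKB2 and CYCB2;2 stayed below 0, in all 17. The fits that changed only the filter, the replicate block or the variance prior could not move these estimates. Estimates near 0 changed sign: CDKB1 with median-of-ratios rescaling (0.010) and in a range from -0.067 to 0.00079 with single libraries left out, CYCB2;1 in a range from -0.025 to 0.083 with single libraries left out, and PCNA with median-of-ratios rescaling (0.012) and quantile normalization (0.049). At an unadjusted p under 0.05, 3 of 7 members passed with library quality weights (26.2% of all genes in that fit), 2 of 7 without wild type replicate 2 (24.8%), 2 of 8 with no filter on low values (15.6%) and at most 1 elsewhere (13.7% to 21.5%). KRP1 moved to -0.58 at a pseudocount of 0.1.

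The count of all genes called, 352, was 153 at a mean of at least 5 FPKM with fewer genes tested, 1097 with library quality weights, 152 with the replicate block, and 157 to 831 with single libraries left out. It moved by over 1.5 times without osg1l2 replicates 1 (168) and 3 (191) and without wild type replicates 1 (157), 2 (831), 3 (181) and 4 (166). Rescaling turned the share of higher calls to 59.9% (median-of-ratios) and 61.8% (quantile), against 46.6%. The block left 0 members called. Deviations of same-numbered libraries correlated at 0.069, -0.017, -0.091 and -0.12, and only replicate 1 of osg1l2 matched its own number best. These correlations cannot show whether same-numbered libraries shared a batch. What moved the counts was not tested. Depth is unknown, so its limits could not be assessed.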
